A study of Mus musculus with 30 samples.

Results

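The genes of DNA replication and mitosis were followed in mouse calcaneus, the heel bone, and in the Achilles tendon that inserts on it. They are 42 of the 55426 genes in the count table, taken by symbol: 17 genes used in S phase and 25 used in mitosis. All 42 were found and all 42 passed the filter on low counts in both tissues. The study asked how muscle loading evoked by light changes gene expression in these tissues, and measured poly-A RNA in 30 samples, 10 groups of 3. Each tissue has a naive group at day 0, and stimulated and unstimulated groups at 5 and at 12 days. Every sample, controls included, carries the same genotype label, Acta1,Ai32; Ai32 is a Cre-dependent reporter that makes channelrhodopsin-2, a light-gated cation channel, fused to a fluorescent protein, and Acta1 is the skeletal muscle actin gene. Neither an age nor separate animals for the replicates are given in the labels. The spread behind each p-value is therefore that of the samples, and could be technical.

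Dividing cells switch on this set of genes in a fixed order. E2F transcription factors induce cyclin E and the replication genes at the entry to S phase: the Mcm2 to Mcm7 helicase, its loader Cdc6, its partners Cdc45 and Gins2, the sliding clamp Pcna and the nucleotide enzymes Rrm2 and Tyms. The mitotic genes follow under the DREAM complex, B-Myb and FOXM1, and encode the cyclin-dependent kinase Cdk1 with its A and B cyclins, the Aurora and Polo kinases, the spindle checkpoint, the spindle motors and the machinery that ends mitosis. In bone most dividing cells are blood precursors of the marrow, with growth plate and bone-lining cells beside them, while adult tendon holds few dividing cells. In whole tissue, fewer dividing cells and less of these transcripts per cell cannot be told apart.

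Before the results, the libraries that stand apart are given. Library totals ran from 19256000 to 52568300 counts in bone, the highest being a sum of 2 samples described next, and from 24489000 to 44566300 in tendon. Replicates 1 and 2 of unstimulated bone at 5 days differed far less than any other pair of replicates (chi-square per gene of 6.53, against 21.2 to 230.5 in the 29 other pairs) and were counted as 1 library, so that group has 2 libraries and bone has 14. That summed library also held 206 CPM (counts scaled to the library total) of keratinocyte markers, against 4.77 to 9.54 in the other bone libraries. Muscle fibre markers summed to 80122 to 179409 CPM in the tendon libraries and to 4756 to 29593 CPM in the bone libraries other than naive library 3, which had 129. Osteoblast markers summed to 4806 to 10358 CPM in bone and tendon fibroblast markers to 429 to 2947 CPM in tendon. No member had a count of 0 in any library. Members had 43 to 8356 counts per library in bone, but as few as 3 and a median of 68 in tendon.

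The upstream sequences are shown because the members moved together in bone. RefSeq promoters of GRCm38.p6 were matched by symbol for 34 members, 14 of S phase and 20 of mitosis; Mcm4, Gins2, Ccne2, Ccna2, Foxm1, Aurkb, Kif20a and Tpx2 had no entry. The 250 bases before the start were searched on both strands. Each member was taken with 1 promoter, while the share of all promoters is over every entry, not reduced to 1 per symbol. E2F sites, spelled TTTCCCGC, TTTCGCGC, TTTGCCGC or TTTGGCGC, were in 4 of 14 S-phase promoters (28.6%), in 1 of 20 mitotic promoters (5%) and in 1.86% of all 32851 promoters. A set of S-phase promoters is printed with these sites in capitals.
Mcm5 (chr8:75109259-75109508, plus strand): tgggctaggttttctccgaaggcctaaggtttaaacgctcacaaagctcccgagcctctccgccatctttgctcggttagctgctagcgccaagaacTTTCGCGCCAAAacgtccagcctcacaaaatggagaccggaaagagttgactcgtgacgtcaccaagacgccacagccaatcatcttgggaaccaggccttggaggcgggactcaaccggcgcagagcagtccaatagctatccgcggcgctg
Mcm6 (chr1:128359706-128359955, minus strand): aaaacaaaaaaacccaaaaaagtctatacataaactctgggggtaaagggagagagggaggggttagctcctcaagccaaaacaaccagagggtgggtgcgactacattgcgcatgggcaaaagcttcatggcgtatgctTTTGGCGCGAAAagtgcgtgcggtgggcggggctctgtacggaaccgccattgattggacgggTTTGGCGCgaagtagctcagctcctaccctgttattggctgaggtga
Mcm7 (chr5:138171884-138172133, minus strand): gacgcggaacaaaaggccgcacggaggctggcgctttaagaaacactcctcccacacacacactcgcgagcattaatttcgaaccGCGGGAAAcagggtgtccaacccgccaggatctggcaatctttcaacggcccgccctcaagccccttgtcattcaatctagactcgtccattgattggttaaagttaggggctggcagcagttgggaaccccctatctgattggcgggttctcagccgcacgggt
In Mcm5 and in the first run of Mcm6, 2 sites on opposite strands overlap, so that Mcm5 holds 2 sites and Mcm6 holds 3. The Mcm7 window precedes the RefSeq start used here. It lies inside the gene as GENCODE annotates it, chr5:138164583-138172422 on the minus strand.

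The cell cycle genes homology region, or CHR element, is the site that the DREAM complex binds in mitotic promoters. Spelled TTTGAA or TTCGAA, it was in 8 of 20 mitotic promoters (40%), in 4 of 14 S-phase promoters (28.6%) and in 17.1% of all promoters. A set of mitotic promoters is printed with it in capitals.
Cdk1 (chr10:69352913-69353162, minus strand): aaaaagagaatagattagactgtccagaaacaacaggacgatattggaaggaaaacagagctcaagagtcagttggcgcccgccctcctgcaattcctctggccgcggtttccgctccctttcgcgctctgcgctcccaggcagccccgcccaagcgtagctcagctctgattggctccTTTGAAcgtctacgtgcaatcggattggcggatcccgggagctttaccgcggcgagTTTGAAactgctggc
Cdc20 (chr4:118437344-118437593, minus strand): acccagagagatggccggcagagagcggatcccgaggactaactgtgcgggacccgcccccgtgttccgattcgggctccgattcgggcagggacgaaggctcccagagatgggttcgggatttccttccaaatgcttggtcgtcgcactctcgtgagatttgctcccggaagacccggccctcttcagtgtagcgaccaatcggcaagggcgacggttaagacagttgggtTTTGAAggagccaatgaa
Bub1b (chr2:118597961-118598210, plus strand): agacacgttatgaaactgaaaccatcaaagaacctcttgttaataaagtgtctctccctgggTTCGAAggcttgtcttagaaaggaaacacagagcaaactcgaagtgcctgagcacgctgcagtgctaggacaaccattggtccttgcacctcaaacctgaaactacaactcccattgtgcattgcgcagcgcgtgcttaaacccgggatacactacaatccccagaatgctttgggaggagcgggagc
The last element ended 9 bases before the start in Cdk1 and 12 bases before it in Cdc20, but 182 bases before it in Bub1b. The CCAAT box, bound by NF-Y, was in 18 of 20 mitotic promoters (90%), in 10 of 14 S-phase promoters (71.4%) and in 33.8% of all promoters. Cdk1 and Mcm7 held both an E2F site and a CHR element. A match is a run of letters and does not show that a factor binds there.

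In naive bone, members differed widely in level. Exon length here is that of all annotated GENCODE exons of a gene merged. It can exceed the length of the transcript made, so the ranking between genes is approximate. Per kilobase of exon, Pcna was the highest at 58.0 ± 11.4 CPM per kb (SD, n = 3), followed by Rrm2, the ribonucleotide reductase subunit, at 37.9 ± 10.8 and the B-type cyclin Ccnb2 at 32.1 ± 9.65. The SD ranges of Pcna and Rrm2 overlapped, as did those of Rrm2 and Ccnb2. The lowest were the kinetochore protein Cenpf at 1.84 ± 0.562 and the checkpoint kinase Ttk at 1.78 ± 0.427 CPM per kb. All other levels below are CPM not divided by length and compare libraries, not genes.

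Over the 5 bone groups the mean sums of the S-phase and of the mitotic genes followed 1 order. The 17 S-phase genes summed to 757, 935 and 1119.8 CPM in the naive libraries, 665 and 603 in unstimulated bone at 5 days, 576, 669 and 800.2 in stimulated bone at 5 days, 334, 427 and 439.7 in unstimulated bone at 12 days, and 596, 459 and 708 in stimulated bone at 12 days. The 25 mitotic genes summed to 854, 1197 and 1420.1 CPM in naive bone, 782 and 688 unstimulated at 5 days, 642, 867 and 963 stimulated at 5 days, 249.8, 375 and 404 unstimulated at 12 days, and 618, 449 and 805 stimulated at 12 days. Both sums were lowest in the 3 unstimulated 12-day libraries, which overlapped no other group. The unstimulated 12-day mean was the lowest of the 5 groups in 42 of 42 members, and the naive mean was the highest in 41, the exception being Gins2. The stimulated 12-day mean lay between the unstimulated 12-day and the naive mean in all 42. The means ran from naive through both 5-day groups and stimulated 12 days to unstimulated 12 days in 37 of 42 members. These were 25 of 25 mitotic but 12 of 17 S-phase genes. The 5-day and stimulated 12-day libraries overlapped in both sums.

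**Figure D1:**
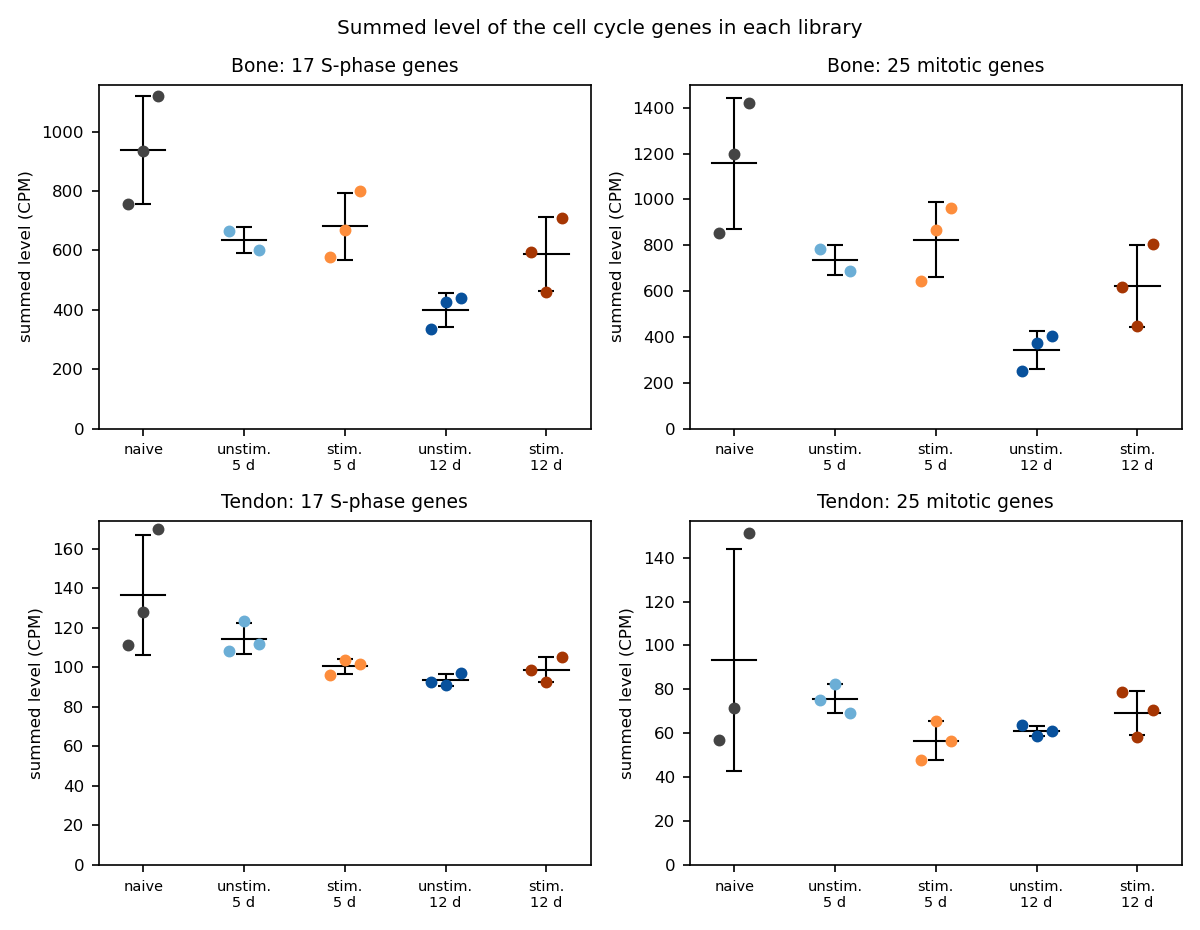
Summed level in CPM of the 17 S-phase genes (left) and the 25 mitotic genes (right) in each library of bone (top) and tendon (bottom), by group; points are libraries, the long bar is the mean and the whiskers are 1 SD. In bone the unstimulated 12-day libraries lie below every other library, and in tendon naive library 3 lies above every other library.

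Single libraries stood apart in the same way in nearly all members. Naive library 3 was the highest of the 14 bone libraries in 41 members and unstimulated 12-day library 1 the lowest in 40. Stimulated 12-day library 2 was the lowest of its group in 42 of 42, and in 14 of them it lay within the range of the unstimulated 12-day libraries.

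Between naive and unstimulated bone at 12 days, all 42 members fell (17 of S phase and 25 of mitosis; edgeR's quasi-likelihood test, adjusted p under 0.05), where 11.7% of the 18851 genes tested were called lower and 10.1% higher. The libraries of these groups did not overlap in any of the 42, where 20% of genes were non-overlapping and lower. The median log2 fold change was -1.32 over the S-phase genes and -1.71 over the mitotic genes, against 0.03 over all genes tested. The range was -2.001 to -0.48.

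Among the genes that prepare replication, Mcm5, a subunit of the replicative helicase, had 65.8, 82.9 and 98.1 CPM in naive bone and 18.2, 30.8 and 28.5 in unstimulated bone at 12 days. It fell by 1.67 ± 0.24 on the log2 scale (± is the standard error; adjusted p = 0.00173, edgeR). Every unstimulated 12-day library was below every naive one, and the 5-day libraries, at 47.8 to 65.9 CPM, lay above the 12-day unstimulated ones. The helicase subunit Mcm2 fell by 1.55 ± 0.23 and the helicase partner Cdc45 by 1.37 ± 0.18, from 15.05, 17.6 and 19.7 to 5.55, 6.69 and 7.98 CPM. Rrm2, which makes deoxyribonucleotides, went from 78.2, 99.98 and 137 CPM to 18.5, 32.6 and 36.5 and fell by 1.84 ± 0.32. Ccne1, the E-type cyclin of S-phase entry, went from 16.2, 17.4 and 26.6 to 3.95, 6.38 and 7.71 CPM and fell by 1.73 ± 0.31.

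Of the S-phase genes, 3 fell least. Pcna, also used in DNA repair, had 115, 133 and 169 CPM in naive bone and 76.5, 76.1 and 81.6 at 12 days without stimulation (-0.83 ± 0.16, adjusted p = 0.00484, edgeR). E2f1, the transcription factor upstream of the S-phase genes, had 17.2, 20.5 and 23.7 CPM against 11.6, 13.4 and 13.3 (-0.68 ± 0.14, adjusted p = 0.00634). Gins2, a subunit of the GINS complex of the helicase, had 34.8, 39.5 and 43.2 CPM against 26.6, 29.8 and 27.6 (-0.48 ± 0.11, adjusted p = 0.0105). In each the groups did not overlap, although the loss was smaller than in any of the 25 mitotic genes.

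The mitotic genes fell within a narrow range, from -2.001 to -1.47. The smallest p belonged to Prc1, which bundles the microtubules of the central spindle: 27.9, 39.1 and 43.9 CPM in naive bone and 8.84, 11.5 and 11.8 in unstimulated bone at 12 days (-1.78 ± 0.18, adjusted p = 0.000573, edgeR). The largest fall was that of Ccnb1, the B-type cyclin of Cdk1, from 35.0, 42.3 and 55.5 CPM to 7.53, 12.8 and 12.6 (-2.001 ± 0.29). Cdk1 itself fell by 1.65 ± 0.23, from 32.5, 43.5 and 53.2 to 10.9, 14.4 and 15.6 CPM. The groups were separate for each of these genes.

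The proliferation marker Mki67 had 170.0, 245 and 298 CPM in naive bone and 45.3, 68.6 and 85.0 in unstimulated bone at 12 days (-1.84 ± 0.31). Top2a, the topoisomerase that untangles chromosomes, fell by 1.81 ± 0.26, Aurkb, the kinase of the chromosomal passenger complex, by 1.64 ± 0.25, and Cdc20, the activator of the anaphase-promoting complex, by 1.65 ± 0.23. By p, the next after Prc1 were Tpx2, a spindle assembly factor (-1.67 ± 0.21), the checkpoint kinase Bub1b (-1.83 ± 0.23), the transcription factor Foxm1 (-1.48 ± 0.20), and the cytokinesis kinesin Kif23 (-1.71 ± 0.23). The centromere protein Cenpf (-1.77 ± 0.25) and the kinesin Kif20a (-1.89 ± 0.26) complete the 10 members with the smallest p.

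**Figure D2:**
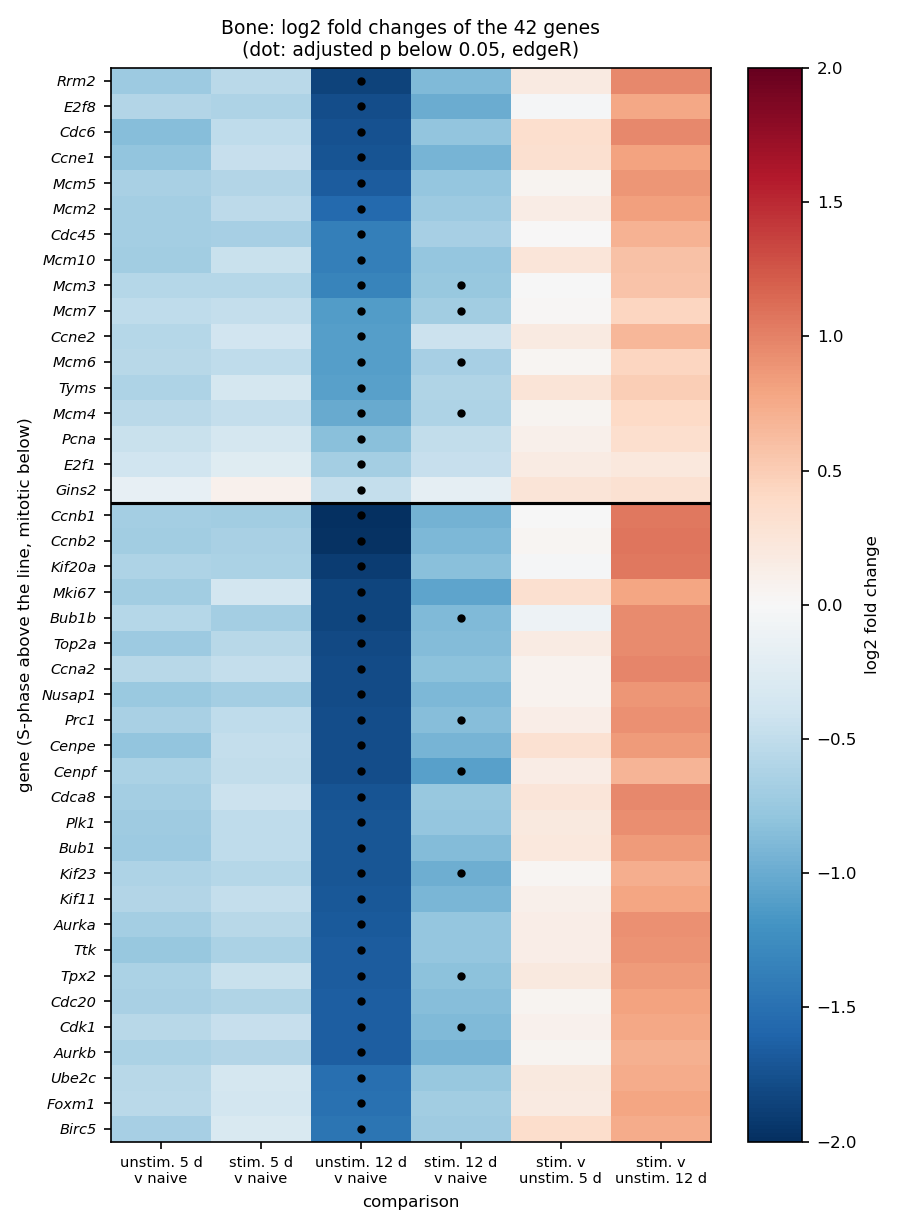
Log2 fold change of the 42 genes in 6 comparisons of bone, S-phase genes above the line and mitotic genes below it, blue for lower and red for higher; a dot marks an adjusted p under 0.05 (edgeR). All 42 are marked for unstimulated 12 days against naive, 10 for stimulated 12 days against naive and 0 in the other columns.

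Other genes of the cycle are given by role. Of 33 other replication genes 27 fell (median -0.84), led by Pole, the leading-strand polymerase (-1.42 ± 0.18, from a mean of 19.8 to 7.36 CPM), the maintenance methyltransferase Dnmt1 (-1.06 ± 0.15) and Rrm1, the partner of Rrm2 (-1.33 ± 0.19). Of 30 other mitotic genes 29 fell (median -1.58), led by the kinase Melk (-1.59 ± 0.19), the separase Espl1 (-1.41 ± 0.18) and Racgap1, a cytokinesis regulator (-1.66 ± 0.21). Of 9 G1 genes, which are cyclins, kinases and their regulators, 5 fell (median -0.63). Cdk6 (-0.72 ± 0.11), Cdc25a (-0.72 ± 0.12) and Cdk2 (-0.63 ± 0.12) had the smallest p, and Skp2 and Ccnd3 also fell. Of 21 inhibitors and genes of quiescence 7 fell and 2 rose (median -0.08). The 3 with the smallest p fell: the retinoblastoma relative Rbl1 (-0.92 ± 0.14), the repressor E2f4 (-0.82 ± 0.13) and Gadd45a (-0.57 ± 0.10). Rbl1 is itself known as an E2F target. The 2 that rose, named here after their values were seen, were the antiproliferative gene Tob1 (0.46 ± 0.13) and Gadd45g (0.53 ± 0.16).

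With stimulation, bone at 12 days also lay below naive bone in all 42 members, but 10 passed the test: Mcm3, Mcm4, Mcm6 and Mcm7 of S phase, and Prc1, Cenpf, Kif23, Tpx2, Cdk1 and Bub1b of mitosis. Of all genes tested 4.54% were called, 2.46% lower and 2.08% higher. The medians were -0.70 and -0.86 for S-phase and mitotic genes, and the libraries of 34 members did not overlap, where 14% of genes were non-overlapping and lower. Prc1 had 20.4, 17.6 and 23.1 CPM in stimulated bone at 12 days against at least 27.9 in naive bone (-0.86 ± 0.17, adjusted p = 0.0218, edgeR), and Cenpf fell by 1.09 ± 0.24. Mcm6 had 57.2, 46.6 and 67.5 CPM against 70.6, 94.7 and 106 in naive bone (-0.66 ± 0.17, adjusted p = 0.0446). The other helicase subunits called were Mcm4 (-0.62 ± 0.15), Mcm7 (-0.70 ± 0.18) and Mcm3 (-0.75 ± 0.19).

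The 32 members that were not called in that comparison had adjusted p-values from 0.0519 to 0.362 (edgeR). Cdc20 was at -0.85 ± 0.22 (adjusted p = 0.0519, edgeR), Aurkb at -0.93 ± 0.25, Ccnb1 at -0.95 ± 0.28, Top2a at -0.86 ± 0.25 and Mki67 at -1.06 ± 0.30. Among S-phase genes Mcm2 was at -0.73 ± 0.23, Mcm5 at -0.78 ± 0.23, Rrm2 at -0.89 ± 0.31, Ccne1 at -0.93 ± 0.30, Pcna at -0.49 ± 0.16 and E2f1 at -0.47 ± 0.14. The count of 10 rested on single libraries: it was 27 without naive replicate 1, 25 without stimulated replicate 3, and 0 without naive replicate 2 or 3 or stimulated replicate 1 or 2. DESeq2 called 35 members in this comparison and limma-voom 29, and edgeR called 5 with no count filter and 0 with only the groups compared.

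At 5 days no member passed edgeR's test against naive bone. In unstimulated bone at 5 days, 0 of 42 were called by edgeR, where 0.053% of genes were called lower. All 42 were below naive (median -0.64), 30 had an unadjusted p under 0.05 where 7.11% of genes did so downwards, and DESeq2 called 1 and limma-voom 2. In 40 members the libraries did not overlap, where 18.5% of genes were non-overlapping and lower with 2 libraries against 3. The smallest p were those of Cdc45 (-0.67 ± 0.20, adjusted p = 0.180, edgeR) and Mcm4 (-0.53 ± 0.17) in S phase and of Prc1 (-0.65 ± 0.19) and Cenpe (-0.79 ± 0.28) in mitosis. Mcm2 was at -0.67 ± 0.26, Rrm2 at -0.72 ± 0.35, Mki67 at -0.69 ± 0.34, Cdk1 at -0.55 ± 0.25 and E2f1 at -0.40 ± 0.15. The others named throughout were Mcm5 (-0.64 ± 0.26), Pcna (-0.45 ± 0.18), Ccne1 (-0.79 ± 0.34), Top2a (-0.73 ± 0.29), Ccnb1 (-0.68 ± 0.31), Aurkb (-0.64 ± 0.28) and Cdc20 (-0.65 ± 0.25).

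In stimulated bone at 5 days, 0 of 42 were called by edgeR, where 0.0159% of genes were called lower, and 41 were below naive (median -0.51). An unadjusted p under 0.05 was reached by 20, where 7.62% of genes did so downwards, and DESeq2 called 1 and limma-voom 3. Libraries did not overlap downwards in 8 of 42, where 11.3% of genes were non-overlapping and lower. The smallest p were those of Cdc45 (-0.66 ± 0.18, adjusted p = 0.123, edgeR) and Mcm4 (-0.47 ± 0.15) in S phase and of Bub1b (-0.68 ± 0.23) and Prc1 (-0.51 ± 0.17) in mitosis. Mcm2 was at -0.53 ± 0.23, Mcm5 at -0.58 ± 0.23, Pcna at -0.35 ± 0.16, Rrm2 at -0.54 ± 0.31, Ccne1 at -0.47 ± 0.30 and E2f1 at -0.24 ± 0.14. Among mitotic genes Mki67 was at -0.37 ± 0.30, Top2a at -0.56 ± 0.25, Cdk1 at -0.46 ± 0.22, Ccnb1 at -0.69 ± 0.28, Aurkb at -0.59 ± 0.25 and Cdc20 at -0.61 ± 0.22. Gins2 was the 1 member above naive, at 0.09. All 4 of these comparisons share the naive libraries, so their values stand side by side and are not independent.

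The comparison that asks about loading directly sets stimulated against unstimulated bone of the same day. At 12 days all 42 members were higher with stimulation, with a median of 0.59 in S-phase genes and 0.85 in mitotic genes against -0.01 over all genes tested, but 0 of 42 were called by edgeR, where 0% of genes were called higher and 0.0371% lower. An unadjusted p under 0.05 was reached by 40, where 7.19% of genes did so upwards. DESeq2 called 21 and limma-voom 0. Libraries did not overlap in 28 (10 of S phase and 18 of mitosis), where 6.15% of genes were non-overlapping and higher.

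Prc1 had the smallest p of the members: 20.4, 17.6 and 23.1 CPM with stimulation and 8.84, 11.5 and 11.8 without (0.92 ± 0.18, adjusted p = 0.0812, edgeR). Tpx2 had 24.3, 19.7 and 31.1 CPM against 10.8, 15.6 and 15.3 (0.84 ± 0.21, adjusted p = 0.152). Among S-phase genes Cdc45 had 11.9, 8.32 and 12.7 CPM against 5.55, 6.69 and 7.98 (0.70 ± 0.18, adjusted p = 0.170), and Mcm5 had 47.2, 35.8 and 60.8 against 18.2, 30.8 and 28.5 (0.89 ± 0.24, adjusted p = 0.174). In all 4 genes every stimulated library was above every unstimulated one, with stimulated replicate 2 closest to the unstimulated group.

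Other members overlapped through that library. Mki67 had 113, 77.2 and 152 CPM with stimulation against 45.3, 68.6 and 85.0 without (0.79 ± 0.30, adjusted p = 0.274, edgeR). Aurkb had 19.1, 13.1 and 22.9 CPM against 7.62, 13.3 and 12.7 (0.71 ± 0.25), and Ccne1 9.04, 7.41 and 15.03 against 3.95, 6.38 and 7.71 (0.80 ± 0.31). E2f1, at 15.8, 14.0 and 14.5 CPM against 11.6, 13.4 and 13.3, did not overlap, yet its difference of 0.21 ± 0.14 was the smallest of the 42. The remaining genes named throughout were Mcm2 (0.83 ± 0.23), Pcna (0.34 ± 0.16), Rrm2 (0.95 ± 0.32), Top2a (0.95 ± 0.26), Cdk1 (0.77 ± 0.23), Ccnb1 (1.05 ± 0.29) and Cdc20 (0.80 ± 0.23).

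At 5 days the difference between stimulated and unstimulated bone was smaller. It had a median of 0.13, with 37 members above 0 and 5 below, and 0 of 42 called by edgeR, 0 by DESeq2 and 0 by limma-voom, where 0% of genes were called. No member had an unadjusted p under 0.05. By p the first were Gins2 (0.26 ± 0.12, adjusted p = 0.627, edgeR) and Tyms (0.26 ± 0.21) in S phase, and Birc5, or survivin (0.36 ± 0.29), and the kinetochore motor Cenpe (0.31 ± 0.27) in mitosis. Without stimulated replicate 3 the median was -0.00 with 20 of 42 members above 0, so the direction at 5 days rested on that library; without the summed library it was 0.22 with 40 above 0.

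The change of the stimulation difference from 5 to 12 days was tested itself. All 42 members were above 0 (median 0.67), but 0 were called by edgeR, where 0% of genes were called, 0 by DESeq2 and 0 by limma-voom. An unadjusted p under 0.05 was reached by 8, where 4.74% of genes did so upwards. The smallest p were those of Bub1b (1.04 ± 0.34, adjusted p = 0.430, edgeR) and Prc1 (0.78 ± 0.26) in mitosis and of Cdc45 (0.69 ± 0.27) and Mcm5 (0.83 ± 0.35) in S phase.

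The 2 days were also compared within each arm. At 12 days, unstimulated bone was lower than at 5 days in all 42 members (median -0.99) with no overlap between libraries in any of the 42, where 16.5% of genes were non-overlapping and lower. By edgeR 0 were called, where 0% of genes were called, while 41 had an unadjusted p under 0.05 where 6.59% of genes did so downwards, DESeq2 called 24 and limma-voom 1. The smallest p were those of Prc1 (-1.13 ± 0.19, adjusted p = 0.209, edgeR) and Bub1b (-1.26 ± 0.25) in mitosis, and Mcm5 (-1.03 ± 0.26) was among those of S phase. In stimulated bone the median over the same days was -0.27, libraries overlapped in all 42, and 0 were called by edgeR, by DESeq2 and by limma-voom, with 3 at an unadjusted p under 0.05 where 5.99% of genes were so downwards and 4.55% upwards. Cenpf (-0.59 ± 0.24) and Mki67 (-0.68 ± 0.30) of mitosis and Gins2 (-0.26 ± 0.11) and E2f1 (-0.23 ± 0.14) of S phase had the smallest p there.

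Between naive and 12-day bone, markers of several marrow lineages moved in the same direction as the cell cycle genes. The 13 erythroid markers summed to 17913, 19381 and 53434 CPM in naive bone, 4098, 7178 and 8305 in unstimulated bone at 12 days, and 11688, 6606 and 20849 in stimulated bone at 12 days. As for the members, naive library 3 was the highest, unstimulated 12-day library 1 the lowest, and stimulated library 2 the lowest of its group. Between unstimulated 12 days and naive, 13 of 13 erythroid markers fell (median -2.24), among them the anion exchanger Slc4a1 (-2.56 ± 0.50), the transferrin receptor Tfrc (-0.75 ± 0.15) and the erythroid factor Klf1 (-2.22 ± 0.47).

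Markers of other marrow lineages moved in the same direction. All 7 granulocyte precursor markers fell (median -1.64), led by Mpo (-1.92 ± 0.34), Elane (-1.79 ± 0.33) and Ctsg (-1.92 ± 0.36), and their sum went from 625, 1362 and 775 CPM in naive bone to 209, 347 and 229. It was 537, 409 and 801 CPM in stimulated bone at 12 days. The naive library with the highest sum here was not the one highest in the erythroid markers. Of 12 B progenitor markers 11 fell and 1 rose (median -1.98), led by the surrogate light chain genes Vpreb1 (-2.05 ± 0.42), Vpreb3 (-1.90 ± 0.41) and Vpreb2 (-2.25 ± 0.51). Of 8 mature neutrophil markers 3 fell (Camp, Ngp and Ltf; median -1.23), and of 6 megakaryocyte markers 4 fell (median -1.03). The 8 macrophage markers did not share this: 3 rose, led by Cd163 (1.37 ± 0.18), and none fell by the test. Over the 5 groups the erythroid and B progenitor mean sums followed the members' order, and the other marrow lists did not. Neutrophil means were 3689 unstimulated and 2942 stimulated at 5 days, against 4603 CPM stimulated at 12 days. Megakaryocyte means were 285 and 238 CPM at 5 days, then 246 unstimulated and 405 stimulated at 12 days. The granulocyte precursor mean was 497 CPM stimulated at 5 days and 583 stimulated at 12 days.

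Against unstimulated bone at 12 days, none of these markers was called in stimulated bone. Of the 13 erythroid markers 13 were above 0 (median 1.02), as were 7 of 7 granulocyte precursor (0.99), 8 of 8 neutrophil (0.97) and 11 of 12 B progenitor markers (0.92). Of the 9 osteoblast markers 2 were above 0 (median -0.17), and of the 9 muscle fibre markers 9 (median 0.75). Tendon fibroblast markers rose in unstimulated bone at 12 days against naive (5 of 7, median 1.10), and 3 of 9 osteoblast, 4 of 7 osteoclast and 2 of 9 cartilage markers fell. The part of any of these cell types in the members' differences was not tested.

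**Figure D3:**
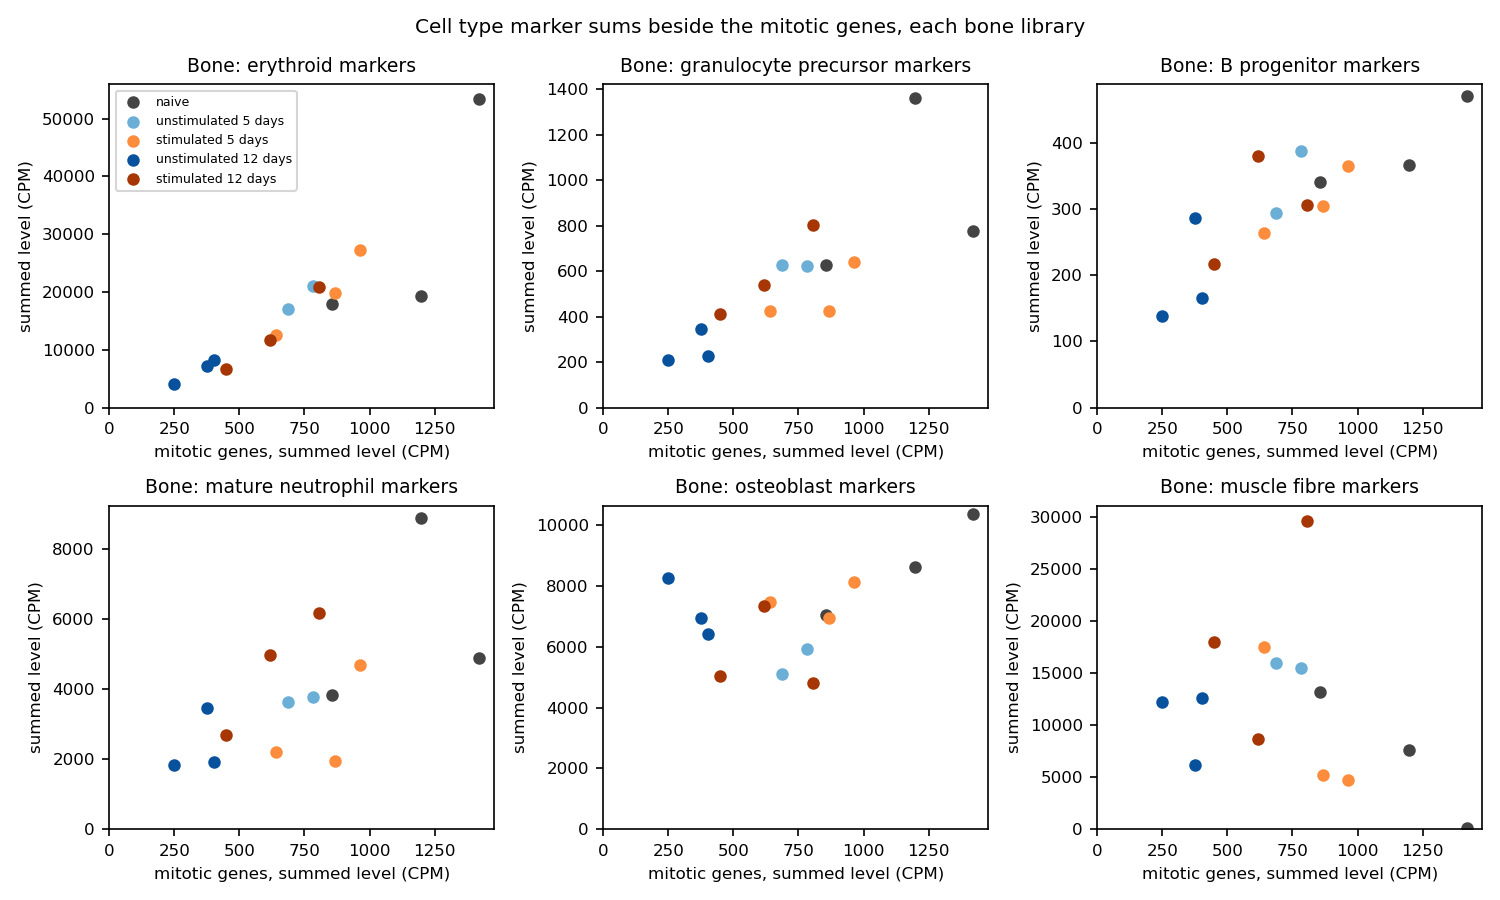
Summed level in CPM of 6 marker lists (vertical axes) against the summed level of the 25 mitotic genes (horizontal axes) in each of the 14 bone libraries, coloured by group. The 3 unstimulated 12-day libraries have the 3 lowest mitotic sums and 3 of the 4 lowest erythroid sums, and the naive library with the highest mitotic sum has the highest erythroid sum and the lowest muscle fibre sum, 129 CPM.

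In tendon the same genes were at far lower levels. Naive tendon was below naive bone in 42 of 42 members, all called by edgeR, where 35% of the 19845 genes tested were called lower in tendon. The median difference was -2.19 in S-phase genes and -2.93 in mitotic genes against -0.06 over all genes. Ccnb1 differed most (-4.08 ± 0.41), at 0.715, 1.06 and 3.15 CPM in tendon and 35.0, 42.3 and 55.5 in bone, and Mki67 was at 6.07, 8.64 and 22.5 CPM in tendon (-3.57 ± 0.38). These CPM are scaled within each tissue and the log2 differences come from 1 fit of both, so the CPM ratios differ from them. Relative to library totals without TMM scaling, 57.2% of genes were non-overlapping and lower in tendon and 20.1% higher, so the size of the difference depends on the scaling. Gins2 differed least (-0.96). Without naive tendon library 3 the median over all members went from -2.83 to -3.47. The members with the smallest p were Mcm7 (-2.19 ± 0.17, adjusted p = 2.39e-10), Mcm3 (-2.23 ± 0.19) and Mcm6 (-2.01 ± 0.17). Of the marrow markers, 12 of 13 erythroid, 7 of 7 granulocyte precursor and 12 of 12 B progenitor markers were lower in naive tendon too, and 9 of 9 muscle fibre markers were higher. Their part in the difference was not tested.

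Naive tendon library 3 stood apart in the members: it was the highest of the 15 tendon libraries in 39 of 42. The mitotic genes summed to 57.0, 71.7 and 151 CPM in naive tendon, 75.4, 82.5 and 69.3 unstimulated at 5 days, 47.9, 65.8 and 56.4 stimulated at 5 days, 63.6, 58.6 and 60.9 unstimulated at 12 days, and 78.6, 58.5 and 70.5 stimulated at 12 days. The other 2 naive libraries lay within the range of the later groups. The S-phase genes summed to 111, 128 and 170.0 CPM in naive tendon and to 92.8, 91.2 and 97.1 in unstimulated tendon at 12 days, with no overlap. The naive libraries, 3 included, had 429, 258 and 641 CPM of cartilage markers and 303, 349.6 and 401 CPM of erythroid markers. The values against naive tendon that follow use all 3 naive libraries, and the counts, medians and leading members fitted without naive library 3 are given beside them. In that fit 0.0115% of genes were called in unstimulated and 0.133% in stimulated tendon at 5 days, 1.19% in unstimulated and 9.5% in stimulated tendon at 12 days.

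Against naive tendon, unstimulated tendon at 12 days had 16 members lower and 1 higher, where 18.8% of the 17108 genes tested were called, 10.6% lower and 8.17% higher. Of S phase 7 fell: Mcm3, Mcm4, Mcm5, Mcm6, Mcm7, Cdc6 and E2f1. Of mitosis 9 fell: Ttk, Ccnb2, Kif23, Foxm1, Top2a, Mki67, Prc1, Cdc20 and Kif11. The medians were -0.79 and -1.19, against -0.03 over all genes. Libraries did not overlap downwards in 25 members, where 25.4% of genes were non-overlapping and lower. Without naive library 3 the count was 1 and the median of all members went from -1.06 to -0.52; it was 0 without unstimulated replicate 2, 7 without unstimulated replicate 1 or 3, 8 without naive replicate 2 and 30 without naive replicate 1. DESeq2 called 28, limma-voom 17 and edgeR with only the groups compared 9.

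Mcm6 had the smallest p: 10.7, 13.3 and 17.8 CPM in naive tendon and 8.23, 6.02 and 7.03 in unstimulated tendon at 12 days (-0.97 ± 0.17, adjusted p = 0.00860, edgeR). Mcm5 went from 4.46, 6.26 and 11.4 to 2.96, 1.69 and 3.13 CPM (-1.50 ± 0.30) and E2f1 from 3.36, 3.54 and 6.01 to 2.24, 2.16 and 2.33 (-0.93 ± 0.20). In each of these the groups were separate. Naive library 3 was the highest naive library in all of them, so leaving it out could not change that separation. Mcm3 fell by 0.81 ± 0.17 and Mcm4 by 0.79 ± 0.18. Pcna, at 27.0, 31.1 and 33.9 CPM against 25.2, 28.2 and 29.5, overlapped (-0.15 ± 0.10), as did Ccne1 (-0.40 ± 0.22). Mcm2, at 9.68, 9.75 and 13.3 CPM against 8.01, 9.32 and 9.02, did not overlap and was not called (-0.31 ± 0.18). In the fit without naive library 3, Mcm6 was at -0.75 (adjusted p = 0.0372, edgeR) and was the 1 member still called. Mcm5 was then at -1.04 (adjusted p = 0.0547), Mcm3 at -0.59 (0.0569), E2f1 at -0.62 (0.0588) and Mcm4 at -0.61 (0.0686).

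Several mitotic genes called in tendon were at low counts. Ttk had 0.498, 0.544 and 1.26 CPM in naive tendon and 0.253, 0.127 and 0.244 at 12 days (-1.84 ± 0.46). Mki67 had 6.07, 8.64 and 22.5 CPM against 5.56, 4.41 and 5.40 (-1.27 ± 0.38) and Top2a 4.14, 7.03 and 15.3 against 3.86, 3.18 and 3.52 (-1.32 ± 0.40). The lowest naive library was close to the highest unstimulated one in both. Foxm1 fell by 1.57 ± 0.42, Cdc20 by 1.16 ± 0.34 and the spindle motor Kif11 by 0.96 ± 0.28. Not called were Rrm2 (-1.03 ± 0.35), Cdk1 (-1.19 ± 0.40), Ccnb1 (-1.40 ± 0.51) and Aurkb (-1.26 ± 0.45). Leaving out naive library 3, the log2 difference was -1.29 in Ttk (adjusted p = 0.0925, edgeR), -0.94 in Foxm1, -0.66 in Top2a (adjusted p = 0.191), -0.64 in Cdc20, -0.57 in Kif11 and -0.52 in Mki67 (adjusted p = 0.167), none of them called.

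**Figure D4:**
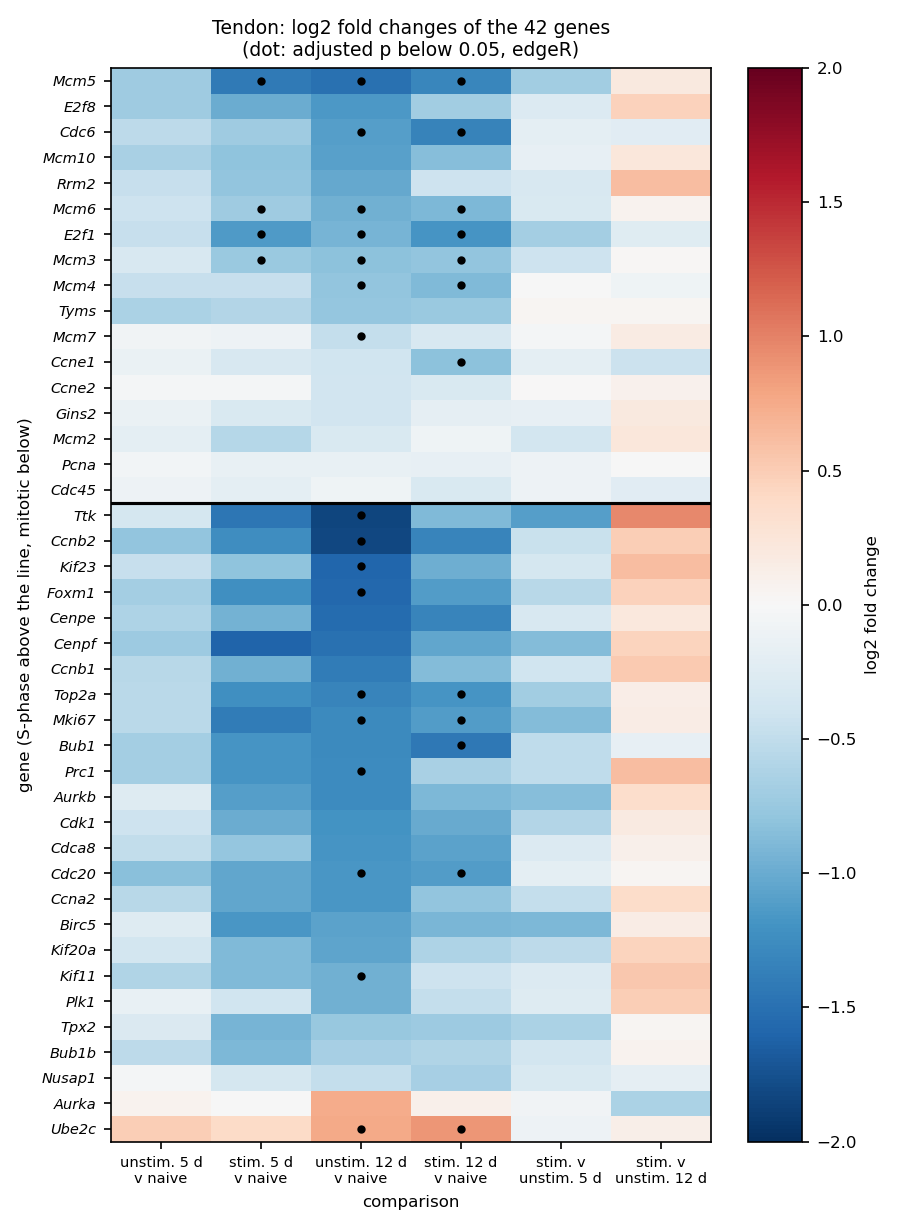
Log2 fold change of the 42 genes in 6 comparisons of tendon, S-phase genes above the line and mitotic genes below it, blue for lower and red for higher; a dot marks an adjusted p under 0.05 (edgeR). Of the 42, 17 are marked for unstimulated 12 days against naive and 12 for stimulated 12 days against naive, among them Ube2c, which is higher in both.

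Stimulated tendon at 12 days had 11 members lower than naive and 1 higher, where 12.5% of genes were called lower and 11.8% higher. Of S phase 7 fell: Mcm3, Mcm4, Mcm5, Mcm6, Cdc6, Ccne1 and E2f1; of mitosis 4 fell: Top2a, Mki67, Bub1 and Cdc20. The medians were -0.74 and -0.90. Libraries did not overlap downwards in 10, where 22.5% of genes were non-overlapping and lower. E2f1 had 1.75, 2.03 and 1.90 CPM (-1.18 ± 0.21, adjusted p = 0.00354, edgeR), below every naive library. Mcm6 had 7.23, 7.58 and 7.64 CPM (-0.89 ± 0.17) and Ccne1 1.09, 0.761 and 1.20 (-0.82 ± 0.23), also separate from naive. Mcm4 (-0.89 ± 0.18), Mcm3 (-0.79 ± 0.17), Mcm5 (-1.30 ± 0.30) and Cdc6 (-1.33 ± 0.33) had the next smallest p among genes that fell.

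Mki67 (-1.12 ± 0.38), Top2a (-1.18 ± 0.40) and Cdc20 (-1.11 ± 0.34) were called, while Mcm2 (-0.08 ± 0.18), Pcna (-0.16 ± 0.10), Rrm2 (-0.41 ± 0.34), Cdk1 (-1.01 ± 0.40), Ccnb1 (-0.87 ± 0.49) and Aurkb (-0.90 ± 0.44) were not. The count of 12 was 6 without naive library 3, where the median of all members went from -0.84 to -0.28, 22 without naive replicate 1, 10 without naive replicate 2 and 7 without any 1 stimulated replicate. DESeq2 called 13, limma-voom 7 and edgeR with only the groups compared 6. The 6 called without naive library 3 were E2f1 (-0.86, adjusted p = 0.0132, edgeR), Mcm6 (-0.68), Mcm4 (-0.70), Mcm3 (-0.56), Mcm5 (-0.84, adjusted p = 0.0473) and Ube2c. Not called then were Ccne1 (-0.61, adjusted p = 0.102), Top2a (-0.52, adjusted p = 0.270) and Mki67 (-0.36, adjusted p = 0.295).

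Stimulated tendon at 5 days had 4 members lower than naive, where 2.29% of genes were called, 1.42% lower and 0.871% higher. They were E2f1 (-1.13 ± 0.20, adjusted p = 0.0187, edgeR), Mcm5 (-1.41 ± 0.30), Mcm3 (-0.73 ± 0.16) and Mcm6 (-0.72 ± 0.16). E2f1 had 1.78, 2.15 and 1.96 CPM and Mcm5 2.58, 2.51 and 3.22, all below the naive libraries. Mki67, at 3.82, 5.54 and 4.73 CPM, had the smallest p of the mitotic genes and was not called (-1.40 ± 0.38, adjusted p = 0.0769). Others were Mcm2 (-0.57 ± 0.18), Pcna (-0.16 ± 0.09), Rrm2 (-0.79 ± 0.34), Ccne1 (-0.32 ± 0.22), Top2a (-1.23 ± 0.39), Cdk1 (-0.99 ± 0.39), Ccnb1 (-0.95 ± 0.48), Aurkb (-1.11 ± 0.44) and Cdc20 (-1.03 ± 0.33). The count of 4 became 0 without naive library 3, where the median went from -0.88 to -0.32, or without stimulated replicate 1 or 2, 1 without naive replicate 2, 2 without stimulated replicate 3 and 6 without naive replicate 1. Without naive library 3, E2f1 was at -0.81 (adjusted p = 0.0616, edgeR), Mcm5 at -0.95, Mcm3 at -0.51 and Mcm6 at -0.50. DESeq2 called 10, limma-voom 19 and edgeR with only the groups compared 0. In unstimulated tendon at 5 days 0 members were called by edgeR, where 0.0351% of genes were called and 0.0117% called lower, 8 had an unadjusted p under 0.05 where 6.69% of genes did so downwards and 4.24% upwards, and DESeq2 called 0 and limma-voom 3. Its median was -0.46 with naive library 3 and 0.05 without it, so the direction turned with that library. There the mitotic genes with the smallest p were Ube2c (0.49 ± 0.18, and 0.43 without library 3) and Cdc20 (-0.84 ± 0.33, and -0.32), and those of S phase were Mcm4 (-0.46 ± 0.18, and -0.27) and Mcm6 (-0.42 ± 0.16, and -0.20).

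Ube2c was the 1 member called higher than naive in tendon by edgeR. It encodes the ubiquitin-conjugating enzyme of the anaphase-promoting complex and lies at chr2:164769898-164778822 of GRCm38, plus strand. It had 15.6, 13.0 and 12.6 CPM in naive tendon, 23.2, 21.4 and 13.6 unstimulated at 5 days, 16.46, 20.5 and 16.9 stimulated at 5 days, 23.1, 25.6 and 21.5 unstimulated at 12 days, and 25.3, 21.4 and 29.6 stimulated at 12 days. It rose by 0.77 ± 0.18 without (adjusted p = 0.0170, edgeR) and by 0.89 ± 0.18 with stimulation (adjusted p = 0.00620), and no 12-day library overlapped the naive ones. Without naive library 3 the differences were 0.71, no longer called, and 0.83. At 5 days without stimulation Ube2c was then at 0.43, below Plk1 (0.73) and Nusap1 (0.72), and the mitotic median was 0.25. In bone Ube2c fell, from 36.8, 48.9 and 64.8 to 15.3, 16.1 and 21.5 CPM. With all 3 naive libraries, Aurka, the Aurora kinase of the spindle poles, was the other member above naive in unstimulated tendon at 12 days. It had 2.96, 4.45 and 4.004 CPM against 1.84, 1.83 and 3.17, which overlap through naive library 3, and was not called. Without that library Aurka was at 1.05 (adjusted p = 0.0591, edgeR) and Nusap1 at 0.28, neither called, while the mitotic median was -0.52. Muscle fibre markers moved in tendon at the same time: 7 of 9 rose at 12 days without stimulation, and their sum was 156773, 179156 and 162131 CPM against 118171, 93608 and 80122 in naive tendon. Of the 9, 0 were called without naive library 3. Their part in the rise of Ube2c was not tested.

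**Figure D5:**
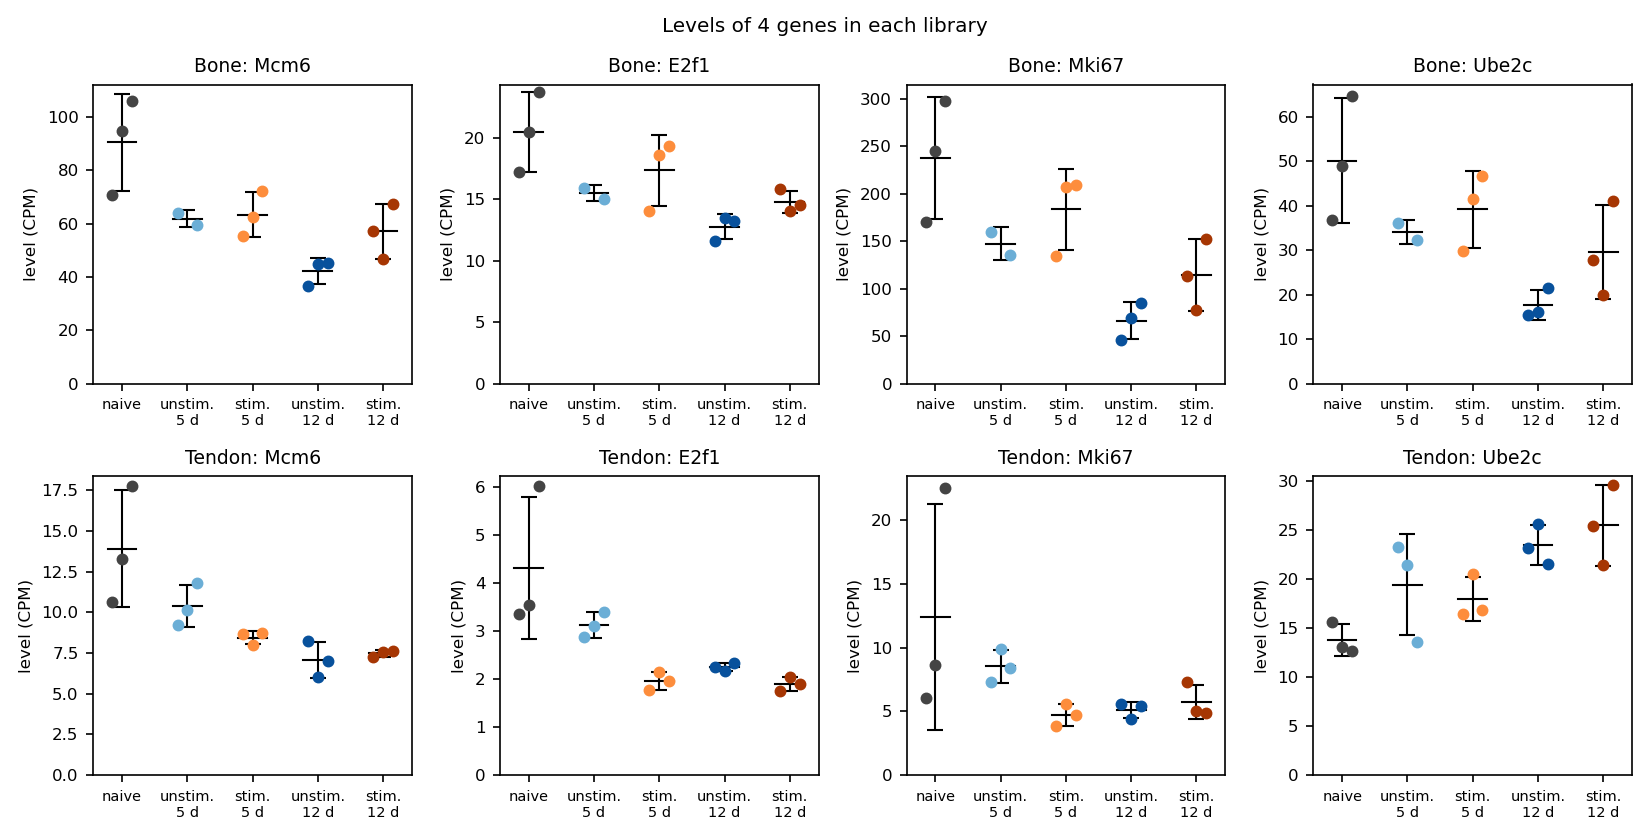
Level in CPM of Mcm6, E2f1, Mki67 and Ube2c in each library of bone (top) and tendon (bottom), by group; points are libraries, the long bar is the mean and the whiskers are 1 SD. Ube2c is highest in the naive group in bone and in the 12-day groups in tendon, where Mki67 is high in 1 naive library, at 22.5 CPM.

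Other genes of the cycle in tendon at 12 days without stimulation moved as follows. Of 32 other replication genes 6 fell and 1 rose (median -0.26), led by the ligase Lig1 (-1.03 ± 0.25), the clamp loader subunit Rfc5 (-0.65 ± 0.18) and the licensing factor Cdt1 (-1.04 ± 0.29). Of 30 other mitotic genes 7 fell (median -1.16), led by Dlgap5 (-1.95 ± 0.49), Espl1 (-1.19 ± 0.30) and the condensin subunit Smc2 (-1.02 ± 0.27). Of 9 G1 genes 5 fell, led by the D-type cyclin Ccnd1, which went from a mean of 51.3 to 23.4 CPM (-1.13 ± 0.17), its partner Cdk4 (-0.42 ± 0.09) and Ccnd2 (-1.02 ± 0.26). Of 20 inhibitors and genes of quiescence 2 fell and 1 rose: Ccng1, a p53 target, rose (0.77 ± 0.18), and Wee1 (-0.75 ± 0.19) and Btg2 (-0.51 ± 0.15) fell. Alongside, 7 of 7 tendon fibroblast markers, 6 of 8 macrophage markers and 5 of 9 osteoblast markers fell, and their part in the members' differences was not tested. Without naive library 3, 0 replication, 0 mitotic and 1 G1 gene of these lists fell, that 1 being Ccnd1 (-0.90, adjusted p = 0.0229, edgeR), none of the inhibitors was called, and 1 tendon fibroblast, 0 macrophage and 0 osteoblast markers fell. The list medians were then -0.18 for replication and -0.51 for mitosis. Gadd45a, which had fallen in bone, rose in stimulated tendon against naive at 5 days (1.45 ± 0.31) and at 12 days (1.15 ± 0.30). It was at 1.29 (adjusted p = 0.149, edgeR) and 0.99 (adjusted p = 0.0812) without naive library 3.

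Stimulation against no stimulation gave no call by edgeR among the members in tendon. At 5 days 40 of 42 were lower with stimulation (median -0.34), 15 without overlap where 5.78% of genes were non-overlapping and lower, and 0 were called by edgeR, where 0.0234% of genes were called lower. An unadjusted p under 0.05 was reached by 6, where 4.17% of genes did so downwards and 4.11% upwards, DESeq2 called 0 and limma-voom 9. E2f1 had the smallest p, with 1.78, 2.15 and 1.96 CPM stimulated and 2.86, 3.11 and 3.40 unstimulated (-0.67 ± 0.21, adjusted p = 0.365, edgeR), ahead of Mcm3 (-0.42 ± 0.17), Ttk (-1.10 ± 0.45) and Birc5 (-0.90 ± 0.38). At 12 days 33 of 42 were higher (median 0.16), 1 had an unadjusted p under 0.05 where 7.03% of genes did so upwards and 4.17% downwards, and 0 were called by edgeR, by DESeq2 or by limma-voom, where 0.286% of genes were called higher and 0.0585% lower. By p the first were Aurka (-0.63 ± 0.27), Kif11 (0.54 ± 0.28), Ccne1 (-0.42 ± 0.24) and Rrm2 (0.61 ± 0.36). From 5 to 12 days, and in the change of the stimulation difference between these days, 0 members of tendon were called by edgeR. An unadjusted p under 0.05 was reached by 9 without stimulation, where 7.32% of genes did so downwards and 4.93% upwards. It was reached by 3 with stimulation (8.58% and 8.83%) and by 2 for the change (1.73% and 2.36%). For these 3, limma-voom called 2, 2 and 0 and DESeq2 0, 0 and 0. Of all genes 0.0234%, 0.187% and 0% were called there. Among the smallest p were Mcm6 (-0.55 ± 0.17) without stimulation, Ube2c (0.50 ± 0.18) with it, and Ttk (2.05 ± 0.67) for the change.

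The stimulation difference was compared between the tissues. At 12 days it was lower in tendon than in bone in all 42 members (median -0.64), but 0 were called by edgeR, where 0.0454% of genes were called lower and 0.176% higher. An unadjusted p under 0.05 was reached by 10, where 5.98% of genes did so downwards, and DESeq2 called 2. By p the first were Aurka (-1.59 ± 0.38, adjusted p = 0.0851, edgeR), Cdc45 (-0.98 ± 0.26, adjusted p = 0.118), Ccne1 (-1.28 ± 0.41) and Tpx2 (-0.87 ± 0.39). The count was 2 without stimulated bone replicate 2 and 1 without stimulated tendon replicate 2. At 5 days all 42 were also below 0 (median -0.46), 0 were called by edgeR, where 0% of genes were called, and by DESeq2, and 4 had an unadjusted p under 0.05 where 2.51% of genes did so downwards, with E2f1 (-0.81 ± 0.25) having the smallest p.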

How the data were processed

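Poly-A RNA from 30 samples (10 groups of 3) was measured, and the authors deposited expected counts per gene for 55426 genes, all whole numbers, which were used as deposited. Per the submitters' processing notes, cutadapt 2.3, FastQC 0.11.8, STAR 2.7.8a, RSEM 1.3.3, MultiQC 1.7 and GRCm38 were used; the annotation release, strand setting and order of steps: not given in the sources used here. Per the labels' protocols, RNA came from a column kit and libraries from a poly-A preparation. Groups follow the treatment label. The titles of all stimulated samples, like those of the unstimulated ones, also hold the word control.

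The members and all gene and marker lists were chosen with earlier results of these data known. Replicates 1 and 2 of unstimulated bone at 5 days were summed into 1 library. Each tissue was fitted with edgeR 4.0.16 (R 4.3.3): TMM scaling, genes kept by a minimum count of 10 and total of 15, the robust quasi-likelihood test over all libraries of the tissue, and Benjamini-Hochberg adjustment over all genes tested, called at 0.05. Comparisons between tissues used 1 fit over all libraries. CPM is the count relative to the TMM-scaled library total, scaled within each tissue, so levels in bone and tendon come from separate scalings. Fold changes use edgeR's default prior count. A prior count of 2 was used only for the log2 CPM in the check on replicate numbers. The standard error is the size of the log2 change over the root of its F statistic. In all, 22 comparisons were made. On simulated counts for unstimulated 12 days against naive bone (18623 genes), 83% of genes changed by 1 on the log2 scale and 96% of those changed by 2 were recovered, with 6 false among 185 calls. The simulation changed 100 genes of each size, all of them well counted, and drew each gene independently. In the data single libraries shifted nearly all members together, so these rates do not carry over to them.

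Named throughout were Mcm2, Mcm5, Pcna, Rrm2, Ccne1, E2f1, Mki67, Top2a, Cdk1, Ccnb1, Aurkb and Cdc20, with fold changes against naive and, in bone, for stimulation at 12 days; to these were added up to 10 called members with the smallest p, or without calls 2 of each class, and up to 3 called genes of each other list. Promoters are RefSeq's, of GRCm38.p6. Alternatives were DESeq2 1.42.0, its size factors, limma 3.58.1 (voom with quality weights), no count filter, a replicate block, the near-identical pair kept as 2 libraries, only the groups compared, and each replicate left out. The lists beside the members were also fitted without naive tendon replicate 3, a choice made after seeing the data.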

Additional observations from a re-analysis of the deposited data

Results flagged for a closer look

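The change from naive to unstimulated at 12 days differed between the tissues in 7 members, in a test of the difference itself that was added after the data were seen (edgeR, 1 fit over all libraries). Of the 19845 genes tested 16% were called, 6.59% higher and 9.39% lower. Counted in either direction, 7 of 42 members is close to the share of all genes. All 7 were higher in tendon relative to bone. Aurka differed by 2.47 ± 0.37 on the log2 scale and Ube2c by 2.33 ± 0.34 (adjusted p = 0.000321 for both). Among S-phase genes, Ccne1 differed by 1.39 ± 0.39, Cdc45 by 1.35 ± 0.25, Mcm2 by 1.299 ± 0.30, Pcna by 0.74 ± 0.19 and Mcm7 by 0.70 ± 0.24. E2f1 did not pass the test, at -0.20 ± 0.24 (adjusted p = 0.641, edgeR).

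Aurka had 17.03, 24.1 and 27.7 CPM in naive bone and 5.41, 7.46 and 8.65 in unstimulated bone at 12 days, with no overlap, against 1.84, 1.83 and 3.17 and then 2.96, 4.45 and 4.004 in tendon, which overlapped. Cdc45 fell in bone and had 2.53, 2.92 and 3.62 CPM in naive tendon against 2.995, 2.63 and 2.92. The count of 7 was 17 without naive tendon replicate 3 and 5 to 17 over all replicates left out. Marrow markers fell in bone and muscle fibre markers rose in tendon over the same days (7 of 9, and 0 of 9 without naive tendon replicate 3), and their part in these differences was not tested.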

How the results depend on the processing

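Unstimulated bone at 12 days against naive kept 42 calls under DESeq2, limma-voom and each replicate left out. The cause of the changes that follow was not tested. DESeq2 called 1 member in unstimulated and 1 in stimulated bone at 5 days against naive, 35 in stimulated bone at 12 days against naive, 21 for stimulation in bone at 12 days, 24 for 12 against 5 days in unstimulated bone, 10 in stimulated tendon at 5 days and 28 in unstimulated tendon at 12 days against naive, 2 for the stimulation difference between tissues at 12 days, and 11 for the change from naive between tissues. Limma-voom called 2, 3 and 29 in unstimulated 5-day, stimulated 5-day and stimulated 12-day bone against naive, and 1 for 12 against 5 days in unstimulated bone. In tendon it called 3, 19 and 7 in unstimulated 5-day, stimulated 5-day and stimulated 12-day tendon against naive, 9 for stimulation at 5 days, and 2 and 2 for 12 against 5 days without and with stimulation. It was not run between tissues.

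With no count filter, 5 members were called in stimulated bone at 12 days against naive and 1 for stimulation at 12 days. With only the groups compared, the counts were 0 in stimulated bone at 12 days, 0 in stimulated tendon at 5 days, 9 in unstimulated and 6 in stimulated tendon at 12 days, all against naive. Leaving out each replicate gave 0 to 1 for unstimulated bone at 5 days, 0 to 27 for stimulated bone at 12 days, 0 to 1 for unstimulated tendon at 5 days, 0 to 6 for stimulated tendon at 5 days (0 to 2 where the count changed by over 1.5 times), 0 to 30 for unstimulated and 6 to 22 for stimulated tendon at 12 days, 0 to 2 for the stimulation difference between tissues at 12 days (1 to 2 where it changed) and 5 to 17 for the change from naive. With the near-identical pair kept as 2 libraries, 1 was called for 12 against 5 days in unstimulated bone.

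Whether the replicate numbers pair the samples was not settled. Same-numbered deviations correlated from -0.39 to 0.46 in bone (7 of 30 over 0.1) and from -0.29 to 0.34 in tendon (11 of 30). Differently numbered samples, and bone against tendon, were not compared in this way. With the replicate block, which in bone keeps the near-identical pair as 2 libraries and was added after the data were seen, 1 member was called in unstimulated bone at 5 days, 26 in stimulated bone at 12 days against naive and 20 for 12 against 5 days in unstimulated bone; the block gave 15 and 11 in unstimulated and stimulated tendon at 12 days, and moved no other count by over 1.5 times.

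Single genes turned in stimulated tendon at 12 days against naive: Mcm2 was at 0.074 by limma-voom, and with a replicate left out Mcm2 ran from -0.25 to 0.087, Ccnb1 from -1.24 to 0.0049 and Rrm2 from -0.88 to 0.022. Within 100 bases of the start the E2F site was in 7.14% of S-phase, 0% of mitotic and 0.846% of all promoters, the CHR in 14.3%, 30% and 6.13%, and the CCAAT box in 57.1%, 80% and 18.9%. The median member had 68 counts per library in tendon and 576.5 in bone.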

Other observations

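The other replication, mitotic and G1 genes were also read for stimulation in bone at 12 days. Of 33 other replication genes 32 were above 0 (median 0.37), of 30 other mitotic genes 29 (median 0.77) and of 9 G1 genes 7 (median 0.21), with none called by edgeR in any of these lists. Of 21 inhibitors and genes of quiescence 15 were above 0 (median 0.15). In stimulated bone at 12 days against naive, the Cdk inhibitor Cdkn1c rose (0.45 ± 0.07, adjusted p = 0.00934, edgeR).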
